A study of Homo sapiens with 6 samples.

Results

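The RNAs described here are 9 long noncoding RNAs chosen by symbol: the snoRNA host genes GAS5, SNHG1, SNHG5, SNHG6, SNHG7 and SNHG8, the nuclear RNAs MALAT1 and NEAT1, and the imprinted RNA H19. All 9 were among the 23368 rows of the deposited count table and among the 11097 genes abundant enough to test. H2122 is a lung adenocarcinoma line of human origin. 3 libraries came from cells given an shRNA against LYCAT, the older name of the acyltransferase gene LCLAT1, and 3 from cells given a control shRNA, all taken at 48 hours after transfection. No other treatment is named. The labels name 1 cell line and do not distinguish several LYCAT shRNAs. Nothing states that replicate libraries were grown as separate cultures, and the p-values below may therefore reflect technical spread alone. Any other effect of the shRNA cannot be told apart here from an effect of less LCLAT1.

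A snoRNA host gene is transcribed and spliced like a messenger RNA, but its introns carry small nucleolar RNAs, which guide the methylation or pseudouridylation of ribosomal RNA. The spliced exons that remain are often bound by ribosomes and removed by nonsense-mediated decay, so that the exon level of such a gene depends on both its transcription and its decay. MALAT1 and NEAT1 stay in the nucleus: MALAT1 collects in the splicing-factor bodies called nuclear speckles, and NEAT1 is the RNA scaffold of paraspeckles. H19 is expressed from the maternal chromosome beside IGF2, is abundant in fetal and mesenchymal tissue, and is the precursor of a microRNA.

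With LYCAT shRNA, the snoRNA host RNAs were modestly higher and NEAT1 was lower. Of the 6 snoRNA hosts, 5 rose (GAS5, SNHG5, SNHG6, SNHG7 and SNHG8), by 1.15-fold to 1.28-fold, and SNHG1 did not pass. NEAT1 fell 1.28-fold, and MALAT1 and H19 did not pass. Of all tested genes 19.1% changed (9.81% rose and 9.26% fell), where changed means an adjusted p under 0.05 with edgeR's quasi-likelihood test. Abundant genes passed more often: of the 2453 genes averaging 90 CPM or more (counts per 1000000, scaled by library size), 30.7% changed, 17.3% rising and 13.3% falling. The median log2 fold change was 0.22 over the 6 snoRNA hosts and 0.20 over the 9 RNAs, against -0.0057 over all tested genes. The changes that passed were small, at 1.15-fold to 1.28-fold. In a test against a 1.5-fold change (glmTreat) 0 of the 9 passed. H19 failed it with a log2 fold change of -1.79 (SE 0.88), so failing it does not make that difference small. At an unadjusted p under 0.05 against no change, 6 of the 9 were higher and 2 lower with edgeR.

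Facts of the whole series bear on these values. Library totals were 3118946 to 4730453 counts with LYCAT shRNA and 4075367 to 4930079 with control shRNA, and 3 counts equal 0.609 to 0.962 CPM depending on the library. The shRNA target LCLAT1 had 18.9, 22.6 and 23.6 CPM with LYCAT shRNA, against 56.8, 61.2 and 65.3 CPM with control shRNA (log2 fold change -1.50, SE 0.114, edgeR adjusted p = 1.15e-18). Scaled by library totals, the epithelial marker EPCAM was at 613 to 629 CPM with LYCAT shRNA and at 628 to 667 CPM with control shRNA. All 9 epithelial markers were detected, summing to 1930 to 1990 CPM with LYCAT shRNA and 2140 to 2230 CPM with control shRNA, and 4 of the 8 tested fell. Markers of endothelium and of blood cells summed to at most 15 counts in any library, and PECAM1, CDH5, PTPRC, CD3E and LYZ were at 0. Fibroblast markers summed to 37.4, 19.2 and 31.0 CPM of the library total with LYCAT shRNA and to 90.9, 131 and 31.2 CPM with control shRNA, so control libraries 1 and 2 stood apart from the other 4. Results that rest on these libraries are given below with and without them.

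The starts of the snoRNA host genes are shown because most of these RNAs moved together. RefSeq's promoter table (GRCh38.p14) held an entry for 5 of the 6 and for 7 of the 9 RNAs in all. Each sequence runs 5′ to 3′ on the strand of the gene, from 60 bases before the annotated start to 40 bases from it, and capitals mark a TATAA between 40 and 16 bases before the start.
SNHG5 (chr6:85678694-85678793, minus strand): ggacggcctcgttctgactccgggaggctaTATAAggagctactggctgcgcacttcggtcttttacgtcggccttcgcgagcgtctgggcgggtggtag
SNHG7 (chr9:136728145-136728244, minus strand): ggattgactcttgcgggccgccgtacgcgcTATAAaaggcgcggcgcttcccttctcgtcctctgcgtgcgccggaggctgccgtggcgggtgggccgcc
SNHG8 (chr4:118278702-118278801, plus strand): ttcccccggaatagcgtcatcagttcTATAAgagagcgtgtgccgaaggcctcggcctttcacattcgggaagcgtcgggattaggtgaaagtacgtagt
SNHG1 (chr11:62855846-62855945, minus strand): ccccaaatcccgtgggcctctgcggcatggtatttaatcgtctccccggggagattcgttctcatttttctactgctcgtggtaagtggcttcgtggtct
GAS5 (chr1:173869006-173869105, minus strand): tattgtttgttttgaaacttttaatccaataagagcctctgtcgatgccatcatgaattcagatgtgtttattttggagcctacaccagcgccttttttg
TATAA was present on the gene's strand in that window in 3 of the 5, SNHG5, SNHG7 and SNHG8, which all rose. Of 35116 RefSeq promoters 3.91% hold it there. It was not found for GAS5, which rose, or for SNHG1, which did not pass. Of the 2 starts that RefSeq lists for MALAT1, 1 held it, and H19 did not. TOP mRNAs are named for a tract of C and T at their start. An unbroken run of at least 8 C or T was searched from 10 bases before to 20 bases after the start. It was found at 1 of the 8 starts of members, the upstream start of MALAT1, and in 12.7% of all promoters. The longest run in that window was 7 bases at SNHG1 and SNHG7, 6 at SNHG5 and SNHG8 and 4 at GAS5. The SNHG7 run begins upstream of the window and is cut by it. Shorter tracts were not searched, so this cutoff does not say which hosts have a TOP tract. CACGTG, a palindrome bound by MYC and related factors, was present in the 300 bases around the SNHG7 start and around 7.26% of all starts. TGATGNAA, the element that ATF4 binds with its partners, was searched on both strands and matched 0 of the 8 starts, against 3.62% of all. A match of these letters is a description of the sequence only.

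**Figure D1:**
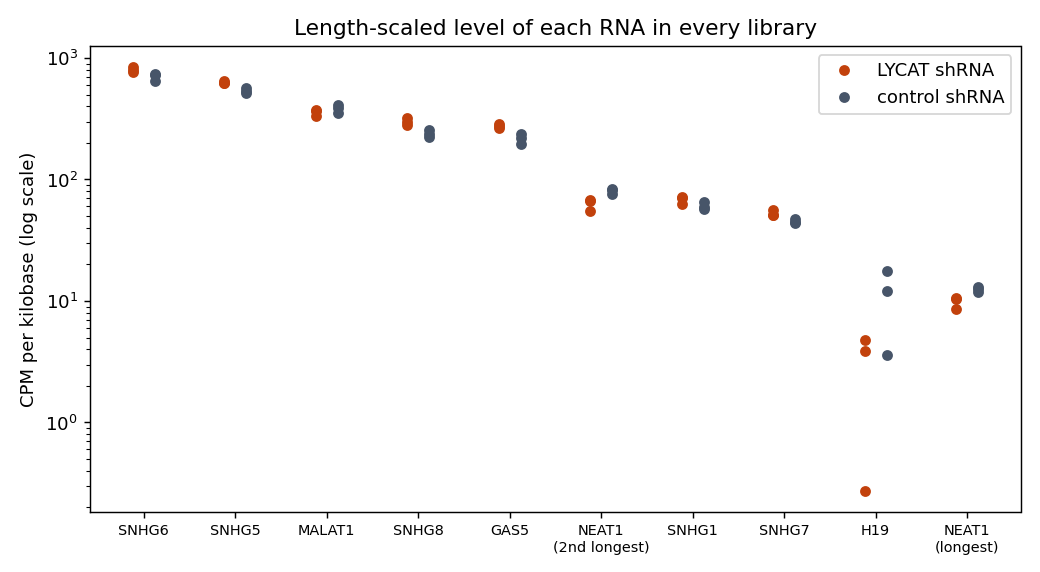
Each point is 1 library, with LYCAT shRNA (orange) left of control shRNA (slate). The vertical log axis gives CPM divided by transcript length in kilobases, with NEAT1 drawn for its longest and its second longest transcript. SNHG6 and SNHG5 lie highest, and H19 spans from 0.275 to 17.6.

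Levels between genes were compared per length, as CPM per kilobase of the longest transcript that GENCODE v29 does not class as a retained intron. SNHG6 had the highest length-scaled level, at 769 to 841 CPM per kilobase with LYCAT shRNA and 645 to 733 with control shRNA. SNHG5 followed at 621 to 645 with LYCAT shRNA and 511 to 568 with control shRNA, below SNHG6 in both groups without overlap. MALAT1 came next, at 332 to 370 with LYCAT shRNA and 353 to 408 with control shRNA. SNHG8 had 280 to 318 with LYCAT shRNA and 223 to 256 with control shRNA, and GAS5 had 267 to 288 and 197 to 235 CPM per kilobase in the same order of groups, so these neighbours overlapped in both groups. SNHG1, at 63.4 to 72.1 with LYCAT shRNA and 57.5 to 65.4 with control shRNA, lay above SNHG7, at 51.1 to 55.7 and 44.2 to 47.5. NEAT1 depends on which transcript is assumed: with its longest, of 22743 bases, it stood at 8.53 to 10.5 with LYCAT shRNA and 11.8 to 13.0 with control shRNA, and with its second longest, of 3524 bases, at 55.1 to 67.5 and 76.3 to 83.9 CPM per kilobase. H19 was at 0.275 to 4.80 with LYCAT shRNA and 3.57 to 17.6 with control shRNA. Which gene models the counting used is not stated, so these lengths are approximate. The order of SNHG6 and SNHG5 rests on their assumed lengths of 648 and 1032 bases. In CPM without length, SNHG5 was the higher of the pair in every library.

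GAS5, a host of box C/D snoRNAs whose RNA accumulates in growth-arrested cells, showed the largest rise among the 6 hosts. Its level was 290, 269 and 279 CPM in the LYCAT shRNA libraries and 198, 237 and 222 CPM in the control shRNA libraries. All 3 LYCAT shRNA libraries lay above all 3 controls. The means were 279 ± 10.3 CPM with LYCAT shRNA and 219 ± 19.3 CPM with control shRNA (SD, n = 3 each), a log2 fold change of 0.35 (SE 0.0581, edgeR adjusted p = 2.0e-06). Leaving out 1 library at a time gave 0.29 to 0.42, and GAS5 passed each time.

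SNHG8, which carries 1 H/ACA snoRNA, SNORA24, rose by nearly as much. It stood at 188, 198 and 213 CPM with LYCAT shRNA and at 150, 160 and 172 CPM with control shRNA, with no overlap. The log2 fold change was 0.32 (SE 0.0629, edgeR adjusted p = 7.95e-05). It passed without any one library, while without both control libraries 1 and 2 it did not (log2 0.22, edgeR adjusted p = 0.0738).

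SNHG5, a host of the SNORD50 snoRNAs, was the most abundant of the 6 in counts. Its level was 641, 665 and 648 CPM with LYCAT shRNA, against 528, 586 and 554 CPM with control shRNA. The LYCAT shRNA libraries differed from each other by less than the controls did, with a coefficient of variation of 1.91% against 5.25%, and the groups did not overlap. The log2 fold change was 0.23 (SE 0.047, edgeR adjusted p = 0.000146), and it was 0.19 to 0.27 with 1 library left out.

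SNHG6, the host of SNORD87, stood at 518, 499 and 545 CPM with LYCAT shRNA and at 418, 473 and 475 CPM with control shRNA. The lowest LYCAT shRNA library was above the highest control. Its log2 fold change was 0.20 (SE 0.0501, edgeR adjusted p = 0.00244). The call rested on control library 1, the lowest of the 6: without it the log2 fold change was 0.14 (edgeR adjusted p = 0.0609).

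SNHG7, which carries H/ACA snoRNAs of the SNORA17 and SNORA43 families, was at 121, 131 and 121 CPM with LYCAT shRNA and at 112, 104 and 106 CPM with control shRNA. The groups did not overlap, and the log2 fold change was 0.21 (SE 0.0703, edgeR adjusted p = 0.0278). Leaving out LYCAT shRNA library 3 or control library 1 kept the call. Leaving out LYCAT shRNA library 1 or 2, or control library 2 or 3, lost it (edgeR adjusted p = 0.0613 to 0.133), as did DESeq2 (adjusted p = 0.103).

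SNHG1, the host of SNORD22 and of SNORD25 to SNORD31, had 107, 104 and 94.3 CPM with LYCAT shRNA and 85.5, 89.0 and 97.3 CPM with control shRNA. LYCAT shRNA library 3 lay below control library 3, so the groups overlapped. The log2 fold change was 0.17 (SE 0.0766, edgeR adjusted p = 0.105), close in size to that of SNHG6 and SNHG7 over all 6 libraries. Without control libraries 1 and 2 it was 0.069 for SNHG1, 0.14 for SNHG6 and 0.23 for SNHG7. A difference between SNHG1 and these RNAs was not tested.

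**Figure D2:**
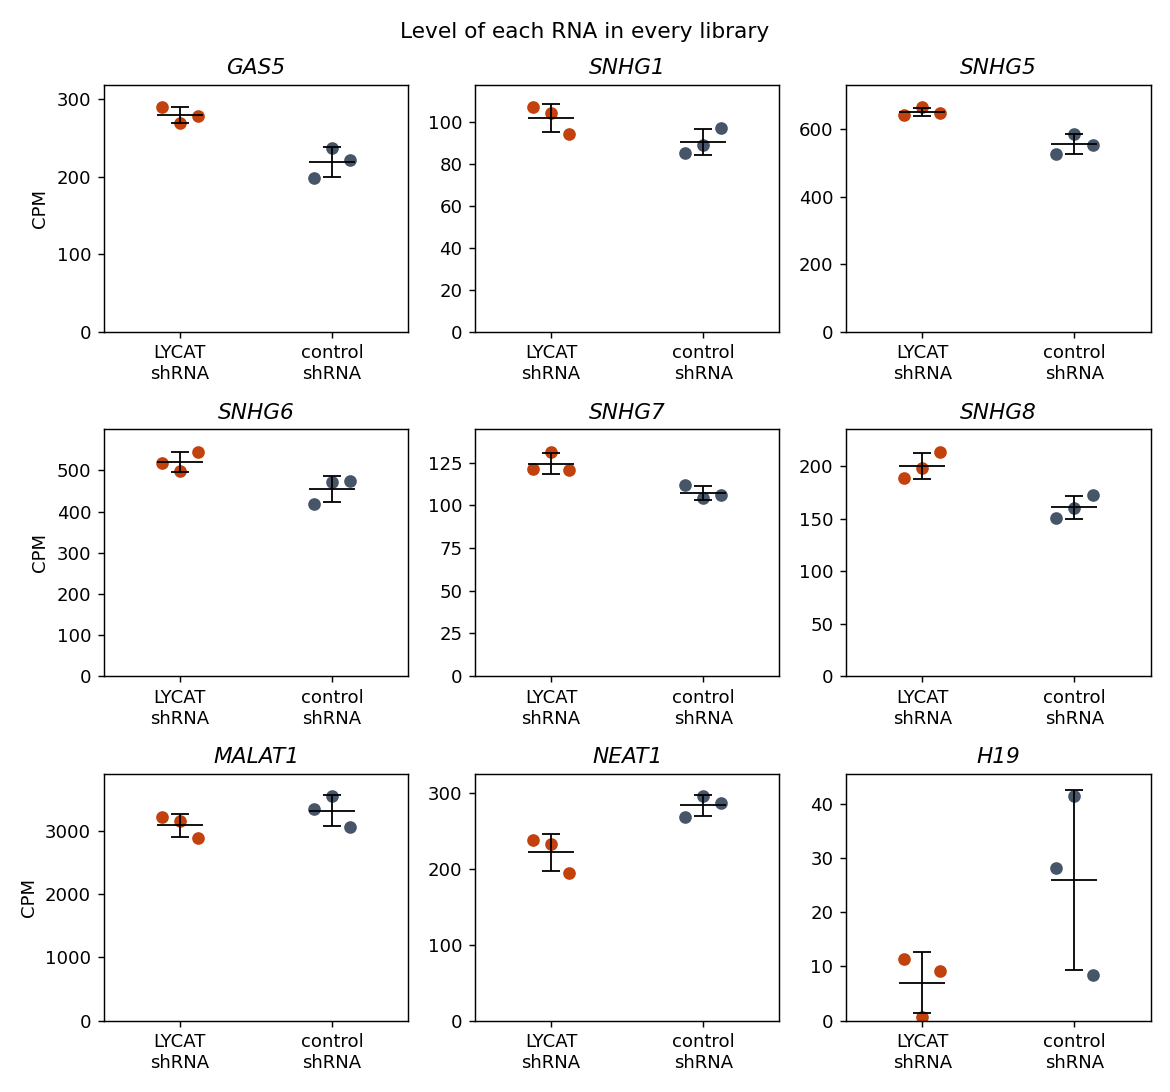
CPM of each of the 9 RNAs, 1 point per library in the order of replicate numbers, with LYCAT shRNA (orange) left of control shRNA (slate); black bars show the mean and SD of 3 libraries and every axis starts at 0. For GAS5, SNHG5, SNHG6, SNHG7 and SNHG8 all LYCAT shRNA libraries lie above all controls, for NEAT1 all lie below, and for SNHG1, MALAT1 and H19 the groups overlap.

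Together the 6 snoRNA hosts took 1866, 1867 and 1900 CPM in the LYCAT shRNA libraries and 1491, 1649 and 1626 CPM in the controls. The groups of libraries did not overlap for 5 of these 6 genes, nor for NEAT1. Of all tested genes 32.8% showed no overlap, 16.6% with LYCAT shRNA higher and 16.2% with it lower. The snoRNA hosts have short transcripts, and transcript length moved slightly with the comparison: the median log2 fold change was 0.024 over the 2506 tested genes with the shortest transcripts (up to 2294 bases) and -0.045 over the 2503 with the longest (from 5368 bases). GAS5, SNHG1, SNHG5, SNHG6 and SNHG8 belong to the shortest class, and MALAT1 and NEAT1 to the longest. Among genes of at least 90 CPM the same medians were 0.033 and -0.017. The part of length in the members' changes was not tested.

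Among other noncoding snoRNA hosts, 12 of the 29 listed were in the table and 10 were tested, and 3 of these rose while 0 fell. Their median log2 fold change was 0.15. With edgeR at an unadjusted p under 0.05, and with DESeq2 and limma-voom, 0 fell as well. SNHG9, a short host beside a ribosomal protein gene, rose 1.70-fold, with 39.3 ± 4.28 CPM in LYCAT shRNA libraries and 23.0 ± 0.825 CPM in controls (SD, n = 3 each; log2 0.76, SE 0.122, edgeR adjusted p = 9.7e-07). EPB41L4A-AS1 rose 1.25-fold, with 146 ± 5.53 CPM with LYCAT shRNA and 117 ± 4.13 CPM with control shRNA. SNHG12 rose 1.21-fold at the edge of the threshold (edgeR adjusted p = 0.0472). SNHG3, the most abundant of the others, had a log2 fold change of 0.058 (SE 0.0606, edgeR adjusted p = 0.563). Its levels were 192, 189 and 191 CPM with LYCAT shRNA and 174, 182 and 194 CPM with control shRNA, so the groups overlapped.

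A list was built from the annotation alone and added after the values were seen. It held every tested noncoding gene matched to GENCODE with an annotated snoRNA gene inside it on the same strand. Of its 19 genes, 5 of them members, 7 rose and 0 fell by edgeR. GAS5 was not on it, because that annotation placed no snoRNA gene inside GAS5, so the list misses known hosts. Of the 14 that are not members 3 rose (21.4%), against 9.81% of all tested genes and 17.3% of abundant ones. Protein-coding hosts moved in both directions: of 195 tested, 30 rose and 23 fell, with a median of 0.0073. Among 26 of them that encode ribosomal proteins, 6 rose (23.1%) and 1 fell, with a median of 0.034. That share is close to that of the noncoding hosts that are not members. RPSA, also a ribosomal protein gene, was left out of these 26 and did not pass (log2 -0.012). In the shorter list of well-known coding hosts, 12 of 44 rose and 2 fell, or 14 in all. Without LYCAT shRNA library 1 or 3 the total was 6, without control library 1 it was 9, and without control library 2 it was 20. NAP1L4, a histone chaperone, rose 1.75-fold (log2 0.81, SE 0.0609, edgeR adjusted p = 8.66e-19). The elongation factor gene EEF2 rose 1.17-fold and the chaperone gene HSPA8 1.14-fold. RCC1, the exchange factor of the small GTPase Ran and a neighbour of SNHG3, fell 1.15-fold.

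**Figure D3:**
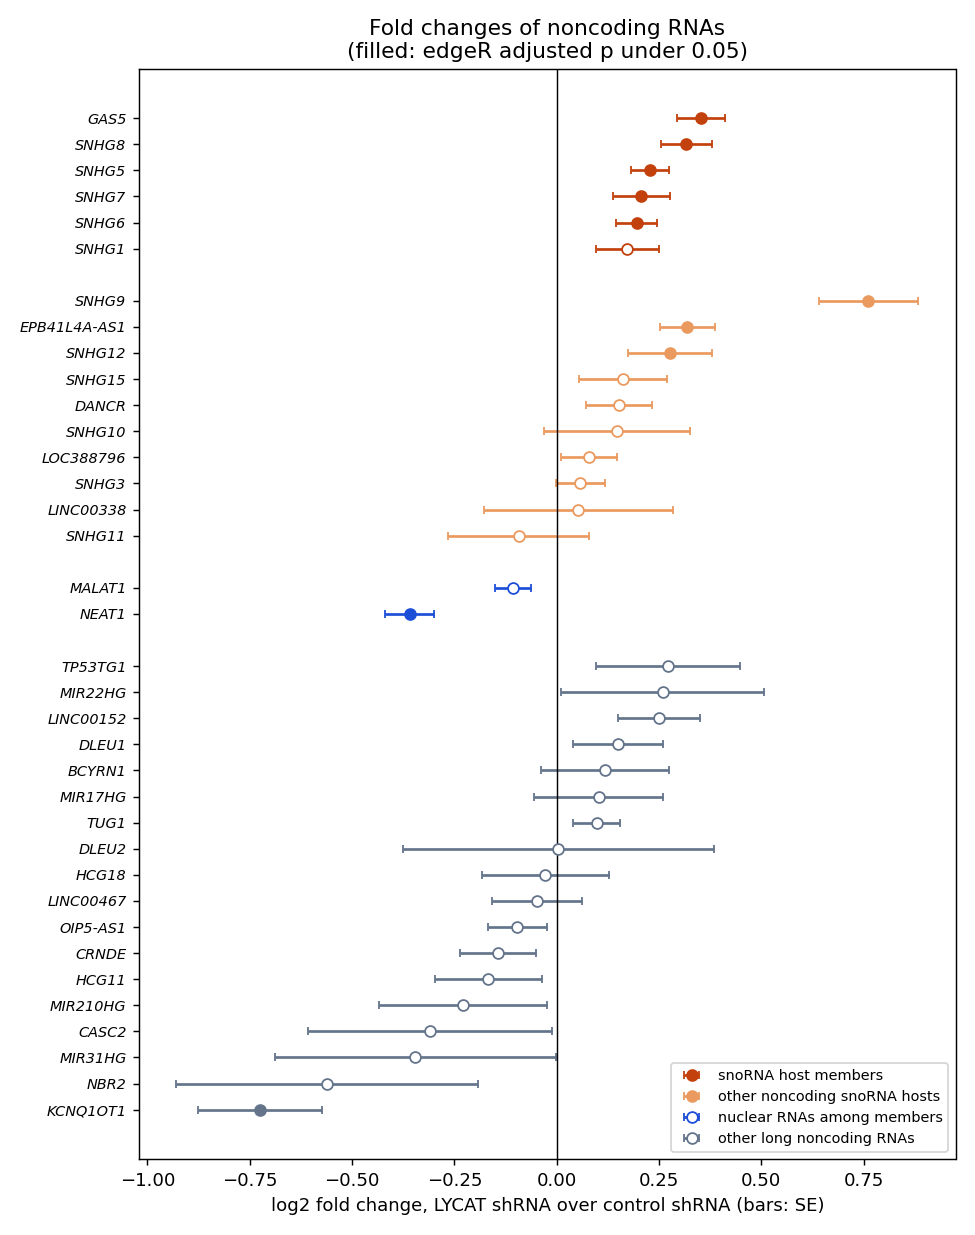
Points give log2 fold changes of LYCAT shRNA over control shRNA with bars of 1 SE, for the snoRNA host members, other noncoding snoRNA hosts, MALAT1 and NEAT1, and other long noncoding RNAs. Filled points have an edgeR adjusted p under 0.05. The 6 snoRNA hosts lie between 0.17 and 0.35, NEAT1 lies at -0.36, and H19 is not drawn.

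The snoRNAs themselves were hardly measured. Of 27 listed snoRNAs and microRNAs within the members, 25 had a row in the table, of which 8 were at 0 in every library and 3 were abundant enough to test. MIR612, a microRNA within NEAT1 that was not listed, was also at 0 throughout. The 25 rows summed to between 41 and 108 counts per library, against 5789 to 8777 counts with LYCAT shRNA and 6601 to 8135 with control shRNA for the 6 hosts. Examples of both classes are printed with some of their conserved boxes in capitals. In a box C/D snoRNA in SNHG5 these are the C box (TGATGA) and last D box (CTGA). In an H/ACA snoRNA in SNHG8 it is the last ACA, 3 bases from the end (GENCODE v29, GRCh38). The H box of SNORA24 is not marked.
SNORD50B (chr6:85677589-85677658, minus strand): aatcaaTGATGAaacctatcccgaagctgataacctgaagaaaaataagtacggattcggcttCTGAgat
SNORA24 (chr4:118279190-118279320, plus strand): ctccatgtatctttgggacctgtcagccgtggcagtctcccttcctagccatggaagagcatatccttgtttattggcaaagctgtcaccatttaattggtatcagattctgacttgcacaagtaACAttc
SNORD50B had 1, 0 and 4 counts with LYCAT shRNA and 2, 1 and 1 with control shRNA, too few to test. SNORA24 had 17, 3 and 5 counts with LYCAT shRNA and 13, 18 and 2 with control shRNA. Its log2 fold change of -0.22 (SE 0.49) gave an edgeR adjusted p of 0.81, so a change of the size seen for SNHG8 was not detectable. SNORD50A in SNHG5 (log2 0.47, SE 0.439, edgeR adjusted p = 0.539) and SNORD81 in GAS5 (log2 0.56, SE 0.426, edgeR adjusted p = 0.401) did not pass either. Of these 3, 0 had an unadjusted p under 0.05 with edgeR, and 0 passed with DESeq2 or limma-voom.

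Proteins that bind or remove these RNAs were read from lists of known factors. Of 18 tested genes of snoRNP proteins and their assembly factors, 1 rose, 1 fell and 16 did not pass (median log2 0.052). RUVBL2, an ATPase that acts in snoRNP assembly, rose 1.20-fold, and PIH1D1, a partner in the same assembly complex, fell 1.19-fold. Without LYCAT shRNA library 3, 0 of the 18 passed, and at an unadjusted p under 0.05 in all libraries 6 were higher and 1 lower (edgeR). Among 21 factors of nonsense-mediated decay 4 rose and 2 fell (median 0.060), so 28.6% changed, against 19.1% of all tested genes and 30.7% of abundant ones. ETF1, the release factor that recognises stop codons, rose 1.21-fold and UPF3B, a link between the exon junction complex and decay, 1.20-fold. UPF3A, its paralog, fell 1.49-fold, with 12.2 ± 0.686 CPM in LYCAT shRNA libraries and 18.3 ± 0.809 CPM in controls (SD, n = 3 each; edgeR adjusted p = 0.00956). EIF4A3, a core protein of the exon junction complex, fell 1.19-fold. The number that rose was 1 without LYCAT shRNA library 2 and 2 without LYCAT shRNA library 1 or control library 1 or 3, and with DESeq2 2 factors passed in all. Of 18 mRNAs with a 5′ TOP tract other than those of ribosomal proteins, 4 rose and 1 fell (median 0.071): the cyclin gene CCNG1 rose 1.27-fold and TPT1 1.08-fold, and the initiation factor gene EIF3E fell 1.19-fold. Of these, 2 passed without LYCAT shRNA library 1, 3 without LYCAT shRNA library 2 or 3, and 9 without control library 2.

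NEAT1, the paraspeckle scaffold, was the member that fell. LYCAT shRNA libraries had 238, 233 and 194 CPM of NEAT1, and controls had 269, 296 and 287 CPM. Every LYCAT shRNA library lay below every control, and LYCAT shRNA library 3 was the lowest. The means were 222 ± 24.1 CPM and 284 ± 13.6 CPM in the same order (SD, n = 3 each), a log2 fold change of -0.36 (SE 0.06, edgeR adjusted p = 4.05e-06). Without LYCAT shRNA library 3 it was -0.27 (edgeR adjusted p = 0.00239), and with any one library left out NEAT1 passed. The counts do not separate its short from its long transcript.

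Of 18 tested genes of paraspeckle proteins 4 rose and 3 fell, with a median log2 fold change of 0.013. SFPQ, a protein on which paraspeckles depend, rose 1.11-fold, with 618 ± 18.9 CPM with LYCAT shRNA and 555 ± 9.96 CPM with control shRNA (SD, n = 3 each; edgeR adjusted p = 0.0103). FAM98A rose 1.36-fold, while EWSR1, an RNA-binding protein, fell 1.25-fold. The share of 38.9% changed compares with 30.7% of abundant genes, and 3 passed without LYCAT shRNA library 3 and 4 without LYCAT shRNA library 1 or control library 3.

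MALAT1 was the most abundant of the 9 in counts, ranking 16 among all tested genes. Its level was 3222, 3160 and 2890 CPM with LYCAT shRNA and 3353, 3550 and 3070 CPM with control shRNA, so the groups overlapped. It took 0.287% to 0.320% of counts with LYCAT shRNA and 0.306% to 0.355% with control shRNA. The log2 fold change of -0.11 (SE 0.0441) did not pass (edgeR adjusted p = 0.0887). Without control library 3 it was -0.15 (edgeR adjusted p = 0.0119), with limma-voom it passed (adjusted p = 0.0447), and without control libraries 1 and 2 it was 0.011. MALAT1 and NEAT1 are neighbours on chromosome 11, both on the plus strand. FRMD8, the nearest tested gene on the lower side of NEAT1, had a log2 fold change of 0.25 and did not pass (edgeR adjusted p = 0.295).

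Genes of nuclear speckle and SR proteins, with which MALAT1 shares its compartment, included 1 that rose and 5 that fell among 24 tested (median -0.027). The share changed lay between the 19.1% of all tested genes and the 30.7% of abundant ones. At an unadjusted p under 0.05 with edgeR, 5 were higher and 7 lower. SRSF6, a splicing regulator, rose 1.18-fold. SRRM2, a scaffold of the speckles, fell 1.18-fold, SRSF9 1.14-fold and TRA2A 1.15-fold. The number that fell was 2 without LYCAT shRNA library 1, control library 1 or control library 3 and 3 without LYCAT shRNA library 2 or 3, and without control library 1, 3 rose. ELAC2, the nuclease that cuts tRNA 3′ ends, and RPP25, a subunit of RNase P, rose 1.21-fold and 1.25-fold. They were the 2 that passed (16.7%) among 12 tested genes listed for MALAT1 and pre-tRNA 3′ processing. Without control libraries 1 and 2, 0 passed by edgeR.

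Of 18 other long noncoding RNAs tested, 0 rose, 1 fell and 17 did not pass with edgeR. That is 5.56% changed, against 19.1% of all tested genes. Several were scarce, and scarce genes passed less often. DLEU2, for instance, averaged 2.63 CPM with LYCAT shRNA and 2.71 CPM with control shRNA (log2 SE 0.381). The low share was therefore not read as a trait of these RNAs. At an unadjusted p under 0.05 with edgeR 1 was higher and 1 lower. DESeq2 called 0 in either direction and limma-voom 1 that fell, and without LYCAT shRNA library 1 or control library 3 1 rose. The one that fell was KCNQ1OT1, an imprinted nuclear RNA of the same chromosome arm as H19. Its levels were 25.9, 27.7 and 15.4 CPM with LYCAT shRNA and 32.2, 43.4 and 36.9 CPM with control shRNA (log2 -0.72, SE 0.152, edgeR adjusted p = 0.000802). As for NEAT1 and MALAT1, its lowest library was LYCAT shRNA library 3. TUG1, the most abundant of this list, stood at 225, 227 and 217 CPM with LYCAT shRNA and at 210, 211 and 205 CPM with control shRNA (log2 0.098, SE 0.0574, edgeR adjusted p = 0.247).

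H19 varied widely between libraries of the same group. Its counts were 53, 2 and 39 with LYCAT shRNA, or 11.3, 0.645 and 9.11 CPM, and 131, 204 and 34 with control shRNA, or 28.1, 41.3 and 8.37 CPM. Control library 3 lay below LYCAT shRNA libraries 1 and 3, so the groups overlapped. The log2 fold change of -1.79 (SE 0.88) did not pass (edgeR adjusted p = 0.276). Calls with other tools differed: H19 passed as lower with limma-voom (adjusted p = 0.006) and in edgeR with robust=FALSE (adjusted p = 8.48e-05). Without control libraries 1 and 2 the log2 fold change was -0.13 (edgeR adjusted p = 0.971); there the single control left has no spread of its own and takes that of the LYCAT shRNA libraries.

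Several mesenchymal genes, FN1, VIM and COL3A1 among them chosen after their values were seen, were highest in the same control libraries as H19. COL1A1, a fibrillar collagen gene, stood at 25.9, 16.4 and 22.9 CPM with LYCAT shRNA and at 59.4, 82.7 and 28.3 CPM with control shRNA. FN1, fibronectin, was at 31.7, 8.71 and 20.3 CPM with LYCAT shRNA and at 92.6, 162 and 19.7 CPM with control shRNA. VIM, the mesenchymal intermediate filament vimentin, was at 5.10, 0.967 and 4.67 CPM with LYCAT shRNA and at 15.0, 14.4 and 4.43 CPM with control shRNA. These 3 genes did not pass either (edgeR adjusted p = 0.158, 0.238 and 0.193). For COL1A1, FN1 and VIM, as for H19, LYCAT shRNA library 2 was the lowest and control libraries 1 and 2 were the highest. The fibroblast markers FAP and DCN had 0 counts in all libraries and in 5 of 6, while COL3A1 had 18, 0 and 6 counts with LYCAT shRNA and 47, 85 and 5 with control shRNA. Others did not follow this order: LUM had 7, 1 and 7 counts with LYCAT shRNA and 5, 19 and 1 with control shRNA, and PDGFRB had at most 3 in any library of either group. The part of such cells in the H19 level was not tested; in bulk RNA, fewer cells of a type and less RNA per cell cannot be told apart.

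**Figure D4:**
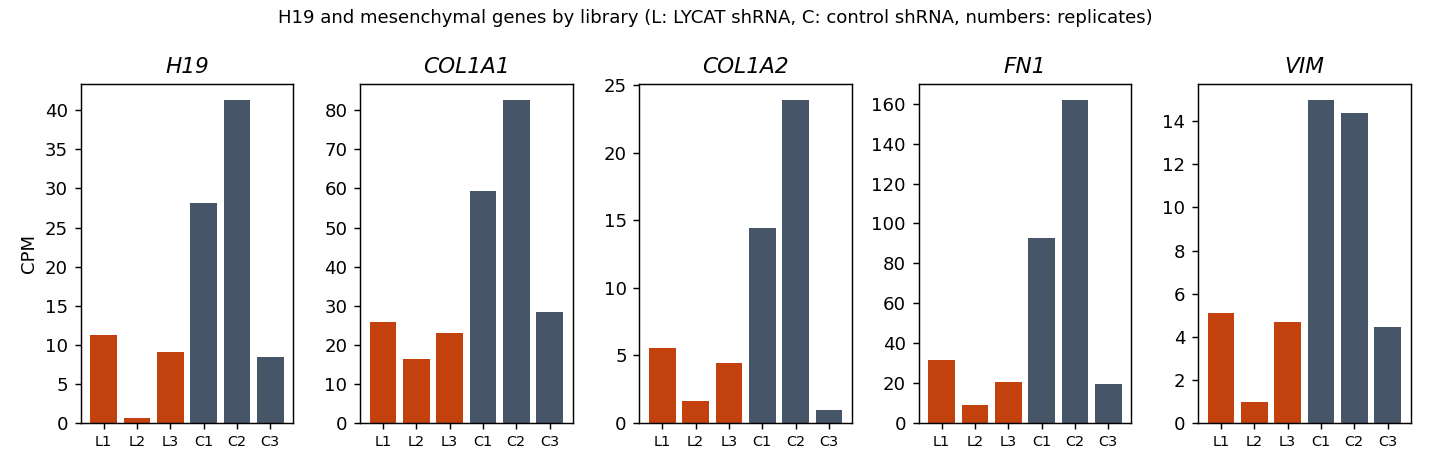
Bars give CPM in each library, LYCAT shRNA (orange, L1 to L3) left of control shRNA (slate, C1 to C3), for H19 and 4 mesenchymal genes; every axis starts at 0. Control libraries 1 and 2 hold the 2 highest bars in each panel, with H19 at 28.1 and 41.3 CPM.

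The neighbours of H19 did not pass. MRPL23 and CD81, the nearest tested genes on either side, had log2 fold changes of -0.0091 and 0.062 (edgeR adjusted p = 0.961 and 0.475). IGF2 and INS-IGF2, which share sequence, and the microRNA row MIR675 within H19 had 0 counts in all 6 libraries. Of 13 tested genes of the H19 locus and imprinted gene network 3 rose and 3 fell (median log2 -0.096). So 46.2% changed, against 19.1% of all tested genes and 30.7% of abundant ones. KCNQ1OT1, already counted among the other long noncoding RNAs, is one of those that fell. PHLDA2, which limits placental growth, rose 1.38-fold, with 195 ± 5.51 CPM with LYCAT shRNA and 141 ± 6.26 CPM with control shRNA. GNAS, a G protein subunit gene, fell 1.30-fold, with 604 ± 35.4 CPM and 787 ± 36.3 CPM in the same order (SD, n = 3 each; edgeR adjusted p = 6.12e-10). GRB10, an adaptor that restrains insulin signalling, rose 1.17-fold. With DESeq2 1 gene of this list rose and 1 fell, and with limma-voom 1 rose and 2 fell. Without LYCAT shRNA library 3 or control library 3, 1 rose, and without control library 3, 5 fell.

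Of the tested neighbours of the snoRNA hosts, 2 fell. SLC3A2, the heavy chain of an amino acid transporter, lies 188 bases from SNHG1 on the opposite strand. It fell 1.24-fold, with 249, 225 and 249 CPM with LYCAT shRNA and 293, 306 and 299 CPM with control shRNA (log2 -0.31, SE 0.0551, edgeR adjusted p = 9.65e-06), while SNHG1 had a log2 fold change of 0.17. ZNF292, the nearest tested gene on the higher side of SNHG5 at 1474085 bases, fell (log2 -0.36, SE 0.091, edgeR adjusted p = 0.00243). Other tested neighbours of the snoRNA hosts, RC3H1 at GAS5, WDR74 at SNHG1, SYNCRIP at SNHG5, PTTG3P and COPS5 at SNHG6, FAM69B and TMEM141 at SNHG7 and PRSS12 at SNHG8, did not pass, with log2 fold changes of -0.10 to 0.23. In GENCODE, ZBTB37 and GAS5-AS1 overlap GAS5, MCMDC2 overlaps SNHG6, FAM69B overlaps SNHG7 and AP000769.2 overlaps MALAT1, all on the opposite strand. The use of strand in counting is not stated, so reads from such pairs cannot be told apart. ZBTB37 and FAM69B had at most 19 counts in any library. No row was matched to GAS5-AS1, MCMDC2 or AP000769.2, so their levels are not known. PTTG3P is a near-copy of another gene, so its count is uncertain.

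The genes whose levels most resembled each member over the 6 libraries were named by Pearson correlation of log2(CPM + 1) among genes averaging 20 CPM or more. These values describe 6 points that share the difference between the groups, and no p is given. SNHG5 resembled IER3, a stress-induced regulator of survival (r = 0.998), and SMCR7L (0.997). GAS5 resembled UBE2E2 (0.997) and SCAMP3 (0.995), SNHG6 resembled RNF187 (0.998) and CSTF2T (0.987), and SNHG8 resembled PDCD6 (0.998) and ME2 (0.996). SNHG7 resembled FAM102A (0.997) and HDAC3 (0.995), and SNHG1 resembled KIAA0889 (0.985) and ATG4B (0.981). NEAT1 resembled SASH1 (0.997) and ANKRD12 (0.995), MALAT1 resembled COQ2 (0.977) and HCFC1R1 (0.973), and H19 resembled SIN3A (0.994) and AP2B1 (0.989). Among the members, pairwise r of the 6 snoRNA hosts ranged from 0.51 (SNHG6 with SNHG7) to 0.96 (GAS5 with SNHG5), and NEAT1 and MALAT1 had 0.74. IER3 rose 1.26-fold and ANKRD12 fell 1.49-fold.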

How the data were processed

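RNA was sequenced from H2122 cells in 3 LYCAT shRNA and 3 control shRNA libraries. The authors deposited 1 table of raw counts per gene symbol. The tools featureCounts 1.5.1, BWA 0.7.15, Bowtie2 and bcl2fastq 2.17 and the builds mm10 and hg19 are listed per the submitters' processing notes; the sources used here do not give the steps behind this table, RNA selection or strand use. The labels speak of an array, while the series type and the whole-number counts are those of sequencing. Columns named cycat were taken as LYCAT shRNA, by their numbers.

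Genes were filtered with filterByExpr, scaled with TMM and tested with edgeR 4.0.16 (quasi-likelihood, robust=TRUE, R 4.3.3), group as the only term, with Benjamini-Hochberg adjustment over 11097 genes. CPM values use TMM-scaled library sizes unless stated. SE is the log2 fold change over the square root of F. The LYCAT shRNA against control shRNA comparison was also run on simulated counts for these genes. It recovered 32.8% of genes changed 1.25-fold, 74.6% changed 1.5-fold and 83.3% changed 2-fold, with 3.79% false calls. The simulation changed a much smaller share of genes than the 19.1% called here, so these rates belong to that setting. Chi-square per degree of freedom between replicate libraries was 1.37 to 2.58, above sampling noise, and each library was counted once. The members and lists were chosen with earlier results of these data known. Genes named from a list are the most significant changed gene of either direction plus at most 2 further changed ones, or at most 2 abundant genes where none changed. SNHG3, TUG1, FN1, VIM, COL3A1 and other unlisted choices were named after their values were seen. Of tested genes, 10016 were matched to GENCODE v29 (GRCh38) for neighbours, hosts and lengths. Alternatives were DESeq2's size factors, unscaled totals, no filter, a filter at a mean of 5 CPM, limma-voom (limma 3.58.1), DESeq2 1.42.0, a replicate block, robust=FALSE, glmTreat at 1.5-fold, each library left out and, added after seeing the data, control libraries 1 and 2 left out together. A few genes that the naming rule would take are not reported here.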

Additional observations from a re-analysis of the deposited data

How the results depend on the processing

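LCLAT1, GAS5, SNHG5, SNHG8 and NEAT1 passed in the same direction under all 14 alternative settings chosen at the outset other than the test against a 1.5-fold change. SNHG6 passed under 13 and SNHG7 under 9 of these 14; SNHG1 passed under 0, and MALAT1 and H19 under 2 each. The number of members changed was 6, and 5 to 6 with 1 library left out (4 to 5 that rose, 1 to 2 that fell). Members that fell numbered 3 with limma-voom and 2 with robust=FALSE, where 1 fell in the main comparison. Against a 1.5-fold change (glmTreat) 0 members changed, LCLAT1 passed, and 148 of all genes did (84 rose, 64 fell). Over all genes 2117 changed, of which 1089 rose and 1028 fell. DESeq2 called 1193 (635 rose, 558 fell). Without control libraries 1 and 2, 1129 changed (573 rose, 556 fell), and 3 members: 2 rose (GAS5 and SNHG5) and 1 fell (NEAT1). There the MALAT1 difference turned positive, at 0.0108 on the log2 scale (edgeR adjusted p = 0.924); that fit has fewer samples. With the replicate block 6 members changed, as without it. Deviations of same-numbered libraries correlated by 0.0051, -0.064 and -0.048, and those of other pairs by -0.0835 to 0.115. No pairing by number was visible, but whether same-numbered libraries were prepared together is not known from these values. Scaling moved the median of all genes by less than 0.1. The snoRNA rows summed to between 41 and 108 counts per library, too few to show small changes. H19 had coefficients of variation of 80.1% with LYCAT shRNA and 64.0% with control shRNA.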
